A study of Mus musculus with 6 samples.

Results

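YAP and TAZ are the transcriptional coactivators at the end of the Hippo pathway, and the 10 mouse genes described here are YAP and TAZ themselves (Yap1, Wwtr1), their DNA-binding partner Tead1, the kinase Lats2, the LATS inhibitor Ajuba and the target genes Ccn1, Ccn2, Ankrd1, Amotl2 and Axl. They were chosen by name as members of the pathway, with earlier results of these data known. All 10 were found by their Entrez identifiers among the 36528 identifiers listed for each library. Of the 10, 9 had enough reads to be tested and Ankrd1 did not. RNA was sequenced from hair follicle stem cells sorted from the skin of Lgr5-DTReGFP mice, which carry the diphtheria toxin receptor and eGFP at Lgr5, so that toxin kills cells that express it. One group of mice was given diphtheria toxin (DT) and the other saline, labelled NaCl, with 3 libraries in each. The sorted cells were CD49f-positive, CD34-positive and GFP-negative in both groups, and every animal carried the Lgr5 allele, so no group shows what DT does without the receptor. The dose, the time after DT, the age of the mice and the hair cycle stage are not given in the labels, and nothing there states whether each library stands for its own mouse, so the p-values measure a spread between libraries that may be technical.

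In the Hippo pathway, a kinase cascade that ends in LATS1 and LATS2 phosphorylates YAP and TAZ, which keeps them in the cytoplasm and promotes their breakdown. When the cascade is low, they enter the nucleus and bind TEAD factors at the genes they activate. In skin the pathway is known for its role in the growth and repair of the epidermis. Much of its control acts on the protein, so the level of Yap1 or Wwtr1 mRNA does not measure the activity of YAP or TAZ.

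The libraries held 15300755 to 25558859 reads in genes. Keratinocyte markers of the bulge were high in all 6 (8 markers, summed level 46269 to 66929 CPM in DT and 43669 to 57858 CPM in saline, where CPM is the read count scaled to a common library size after TMM normalisation). The keratins Krt5, Krt14 and Krt15 made up most of this sum in every library. Among the 8, Krt14 rose, Sox9, Lhx2 and Nfatc1 fell, and Krt5, Krt15 and the sort markers Cd34 and Itga6 (CD49f) did not pass (50% called, against 29.0% of all genes tested). Lgr5, where the toxin receptor is carried, was at 6.98 to 7.27 CPM in DT and at 17.3 to 31.6 CPM in saline. The 6 fibroblast markers summed to 9.47 to 16.9 CPM in DT and 23.5 to 41.3 CPM in saline, with Pdgfra, Dcn and Lum under 1 CPM in every library. Col1a2 made up most of this sum in every library and fell (log2 -1.22, edgeR adjusted p = 0.0079), and Col1a1 did not pass. The 8 immune markers summed to 101 to 123 CPM in DT and 155 to 231 CPM in saline, and 4 of the 7 tested fell (57.1%, where 11.9% of all genes tested were lower). The 5 endothelial markers summed to 7.64 to 11.3 CPM in DT and 3.42 to 22.3 CPM in saline. Of the 6 smooth muscle and pericyte markers, summed at 27.0 to 109 CPM in DT and 2.54 to 4.78 CPM in saline, the actin Acta2 and Tagln rose, and Myh11, Des, Rgs5 and Pdgfrb stayed under 1 CPM in every library. The 4 melanocyte markers summed to 7.92 to 10.3 CPM in DT and 13.5 to 27.4 CPM in saline. Dct (log2 -2.86) and Tyrp1 (-2.83) fell, Pmel did not pass and Mlana was too low to be tested. The part of these other cells in the results below was not tested, and in bulk RNA fewer cells of a type and less RNA per cell cannot be told apart.

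Of the 9 YAP/TEAD genes tested, 4 passed the test (44.4%), against 29.0% of all 15132 genes tested. Yap1, Ccn2 and Ajuba fell in DT cells and Axl rose, and Ccn1 was higher in every DT library without passing. Wwtr1, Tead1, Lats2 and Amotl2 did not pass and their groups overlapped. The test was edgeR's quasi-likelihood test with Benjamini-Hochberg adjustment over all genes tested, at an adjusted p under 0.05. Lower calls were 3 of 9 (33.3%), where 11.9% of all genes were lower, and higher calls 1 of 9 (11.1%), where 17.2% were higher. Over all genes the calls were 2600 higher and 1795 lower, or 2099 higher and 2316 lower when libraries were scaled by their size only. The median log2 fold change was 0.08 over the 9 genes and -0.01 over all genes tested, and the median size of the change, regardless of sign, was 0.40 for the 9 and 0.45 for all. The DT and saline libraries did not overlap for 5 of the 9 genes (55.6%), against 45.9% of all genes tested.

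Levels of different genes were compared per length, by the authors' RPKM values. In DT cells Ccn1 had the highest mean level, 194 ± 13.6 RPKM, followed by Ccn2 with 177 ± 49.4 RPKM (SD, n = 3), and their ranges over the DT libraries overlapped. In saline cells Ccn2 stood first with 333 ± 65.0 RPKM and Ccn1 second with 147 ± 23.6 RPKM (SD, n = 3), with no overlap. Axl came next in both groups, with 67.5 ± 11.1 RPKM in DT and 48.4 ± 1.95 RPKM in saline, then Ajuba with 19.1 ± 1.48 RPKM in DT and 27.2 ± 1.32 RPKM in saline, and Yap1 with 12.2 ± 0.820 RPKM in DT and 17.2 ± 0.220 RPKM in saline. Lats2, Wwtr1 and Amotl2 lay between 3.92 and 5.33 RPKM in group means and overlapped as neighbours in both groups. Tead1 was lower, with 2.44 ± 0.451 RPKM in DT and 2.29 ± 0.612 RPKM in saline, and Ankrd1 was last. In saline cells 99.2% of all genes tested had a lower RPKM than Ccn2, 97.5% a lower one than Ccn1, and 35.4% a lower one than Tead1. The mRNAs of the secreted targets were thus near the top of the range and that of the DNA-binding factor in its lower part.

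The promoters of these genes are shown because TEAD factors recognise the core motif GGAATG, and its presence is a feature that the choice of members did not use directly, although several of them are textbook TEAD targets. RefSeq's promoter windows (build GRCm38.p6, 250 bases before to 50 after an annotated start) covered 8 of the 10 genes, and Tead1 and Ccn2 had no entry. GGAATG, on either strand (CATTCC when read on the opposite one), was present in all 8 genes, in 9 of their 10 windows, while 16.6% of all 27025 genes with a window and 14.7% of all 32851 windows held it. The AP-1 motif TGANTCA, searched in the same way, was in 0 of the 10 windows of these genes and in 7.81% of all windows. The stretches that hold GGAATG follow, 5′ to 3′ on the strand of the gene, with the motif in capitals.
Yap1, chr9:8004712-8004757, minus strand: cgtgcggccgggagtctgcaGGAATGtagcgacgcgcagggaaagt
Wwtr1, chr3:57576021-57576066, minus strand: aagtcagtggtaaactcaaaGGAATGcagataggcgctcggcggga
Lats2, chr14:57746102-57746131, minus strand: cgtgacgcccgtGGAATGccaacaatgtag
Ccn1, chr3:145650063-145650108, minus strand: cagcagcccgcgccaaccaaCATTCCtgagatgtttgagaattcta
Ankrd1, chr19:36119942-36120074, minus strand: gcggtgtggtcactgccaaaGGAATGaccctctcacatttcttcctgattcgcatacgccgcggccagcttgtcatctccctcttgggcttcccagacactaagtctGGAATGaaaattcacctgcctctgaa
Amotl2, chr9:102717719-102717764, plus strand: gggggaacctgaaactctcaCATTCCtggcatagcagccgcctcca
Ajuba, chr14:54577800-54577867, minus strand: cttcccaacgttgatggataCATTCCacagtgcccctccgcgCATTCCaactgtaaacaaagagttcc
Axl, chr7:25788941-25788983, minus strand: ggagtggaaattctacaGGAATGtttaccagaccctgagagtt

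Ankrd1 and Ajuba had 2 copies of the motif each and the others 1, and the copy of Wwtr1 was counted in both of its windows, which overlap. The first base of the Lats2 copy lay at 4 relative to the start, in 1 of its 2 windows, and those of the other copies between -233 (Axl) and -65 (Amotl2). The Amotl2 stretch lies inside the gene's annotated span, upstream of a later start, and the Lats2 stretch at the 5′ end of its gene. Genes with the motif included Yap1 and Ajuba, which fell, Axl, which rose, and Wwtr1, Lats2 and Amotl2, which did not pass. A match of 6 letters describes the sequence and does not show that a factor was bound there in these cells.

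**Figure D1:**
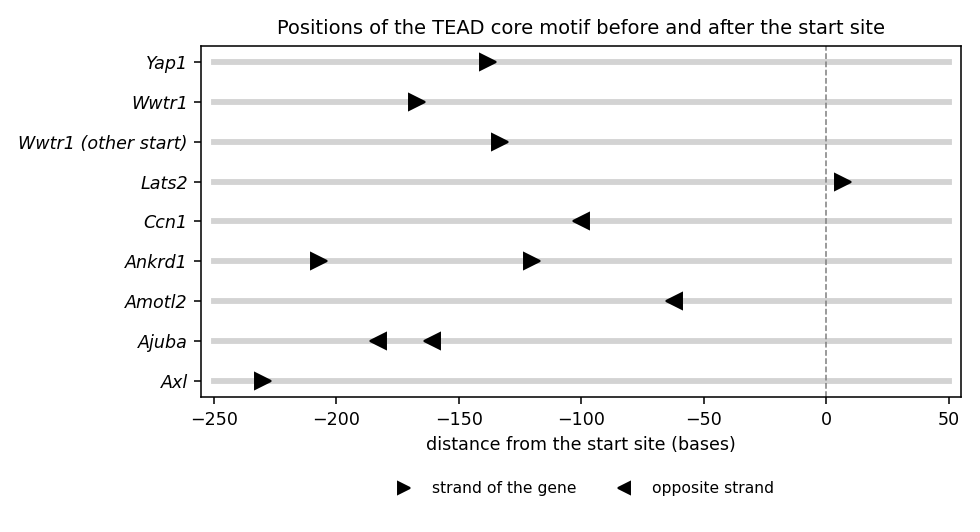
Positions of GGAATG in the promoter windows, one row per annotated start, with the distance from the start site in bases on the horizontal axis. Grey lines are the windows from 250 bases before to 50 after the start, right-pointing triangles mark the motif on the strand of the gene and left-pointing ones on the opposite strand, and only Lats2 has its copy after the start.

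Yap1 (Entrez 22601, at 7931999 to 8004638 of chromosome 9 in GRCm38.p6), the gene of the coactivator YAP, was at 52.8, 52.0 and 58.2 CPM in DT libraries 1 to 3, against 76.2, 76.5 and 77.7 CPM in saline libraries 1 to 3. All DT libraries lay below all saline libraries, and the saline libraries were within 2 CPM of each other. The fold was 0.708 (log2 -0.50, SE 0.13, interval -0.78 to -0.22, adjusted p = 0.0152). Without saline library 2 the log2 fold change was -0.50 and did not pass (adjusted p = 0.0599).

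Wwtr1 (Entrez 97064, chromosome 3 from 57455644 to 57575910), which encodes TAZ, the paralog of YAP, stood at 25.3, 26.0 and 28.2 CPM in the DT libraries, against 33.03, 18.4 and 20.1 CPM in the saline libraries. Saline library 1 was above all DT libraries and the other 2 saline libraries were below them, so the groups overlapped. The log2 fold change was 0.15 (interval -0.36 to 0.66, adjusted p = 0.648), and it was -0.00 without saline library 2, so no direction can be given. An annotated pseudogene, Gm16016, overlaps it.

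The balance of the 2 coactivators was followed as the ratio of their RPKM values within a library, which does not depend on the scaling of the library. Yap1 was at 2.39, 2.28 and 2.36 times the RPKM of Wwtr1 in DT libraries and at 2.63, 4.76 and 4.42 times in saline libraries. The ratio was lower in every DT library than in any saline library, with saline library 1 close to the DT libraries. The mean log2 ratio was 1.23 ± 0.0326 in DT and 1.93 ± 0.465 in saline (SD, n = 3), a difference of -0.70 (two-sided exact permutation test, p = 0.1, the smallest that 3 against 3 libraries allow).

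Tead1 (Entrez 21676, chromosome 7 from 112679356 to 112906784), which encodes a TEAD factor that brings YAP and TAZ to DNA, had 20.9, 29.1 and 27.2 CPM in the DT libraries, against 25.4, 30.3 and 17.3 CPM in saline libraries. The libraries of the groups were intermingled. The log2 fold change was 0.08 (interval -0.43 to 0.59, adjusted p = 0.813), and it was -0.04 without DT library 2 and -0.12 without saline library 3, neither past the test.

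Lats2 (Entrez 50523, chromosome 14 from 57689662 to 57746212), a kinase that inhibits YAP and TAZ and is also one of their target genes, had 25.7, 29.6 and 28.7 CPM in the DT libraries, against 28.5, 34.8 and 31.3 CPM in saline libraries. Saline library 1 lay within the DT range. The log2 fold change was -0.17 (interval -0.52 to 0.18, adjusted p = 0.446). Its gene overlaps the predicted gene Gm52140 and a small nucleolar RNA, Gm26440, in the annotation, so some reads may be shared.

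Ajuba (Entrez 16475, chromosome 14 from 54567469 to 54577661), a LIM-domain protein of cell junctions that binds LATS kinases and restrains them, was at 69.4, 67.0 and 77.2 CPM in DT libraries, against 105, 103 and 95.6 CPM in saline libraries. All DT libraries lay below all saline libraries. The fold was 0.703 (log2 -0.51, SE 0.13, interval -0.79 to -0.23, adjusted p = 0.0144), close to that of Yap1. Without saline library 2 it was -0.50 on the log2 scale and did not pass (adjusted p = 0.062).

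**Figure D2:**
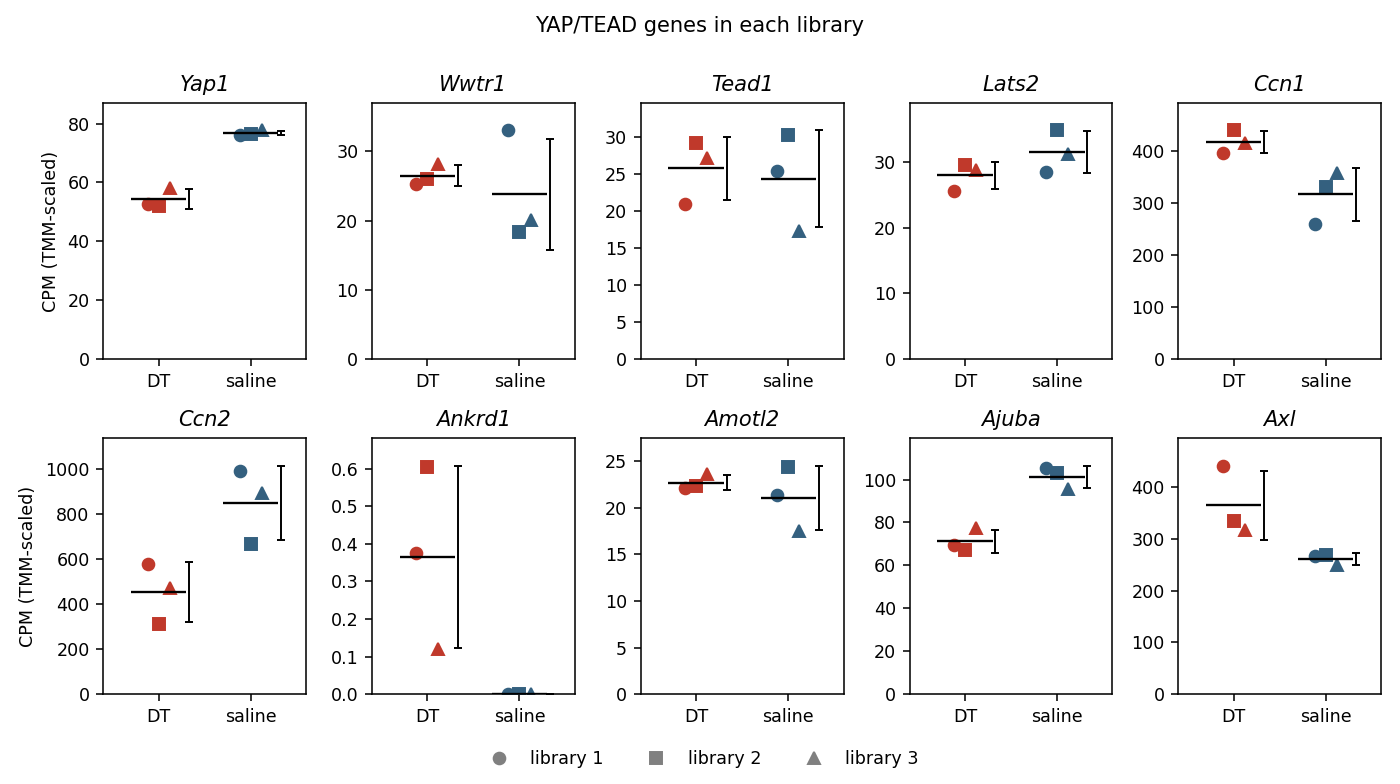
CPM of the 10 genes in each library, with the 3 DT libraries left of the 3 saline libraries in each panel and the axis of each panel starting at 0. Symbols give the library number, which does not pair libraries across groups, and lines and bars show the mean and SD; Yap1, Ccn2 and Ajuba are lower and Ccn1 and Axl higher in every DT library, and Ankrd1 has reads in DT libraries only.

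The target genes did not move together. Ccn2 (Entrez 14219, chromosome 10 from 24595442 to 24598683), known as connective tissue growth factor, a secreted matrix-associated protein, was at 579, 312 and 472 CPM in DT libraries, against 990, 668 and 894 CPM in saline libraries. The groups did not overlap, with DT library 2 the lowest and saline library 1 the highest. The fold was 0.534 (log2 -0.90, SE 0.22, interval -1.40 to -0.41, adjusted p = 0.0144). It passed without any 1 of the 6 libraries (log2 -1.12 to -0.73, adjusted p 0.00587 to 0.0417). Its gene overlaps the long noncoding gene Gm15270, which had at most 82 reads in any library, against at least 4647 for Ccn2.

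Ccn1 (Entrez 16007, chromosome 3 from 145646971 to 145649985), known as Cyr61, the secreted paralog of Ccn2 and like it a standard readout of YAP, had 397, 439 and 414 CPM in the DT libraries, against 260, 331 and 358 CPM in saline libraries. All DT libraries lay above all saline libraries. The log2 fold change was 0.40 (SE 0.14, interval 0.08 to 0.72, adjusted p = 0.0617), so it did not pass with edgeR, while with DESeq2 it did (0.40, adjusted p = 0.0443). Its interval and that of Ccn2 did not overlap.

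Within a library, the RPKM of Ccn1 was 0.811, 1.67 and 1.04 times that of Ccn2 in DT and 0.311, 0.587 and 0.474 times in saline. Ccn2 was thus the higher of the pair in all saline libraries and in DT library 1, and Ccn1 in DT libraries 2 and 3. The mean log2 ratio was 0.16 ± 0.528 in DT and -1.18 ± 0.466 in saline (SD, n = 3), a difference of 1.34 (two-sided exact permutation test, p = 0.1, the smallest possible here). Both ratios kept this p when adjusted over the 2, and neither could go below it.

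**Figure D3:**
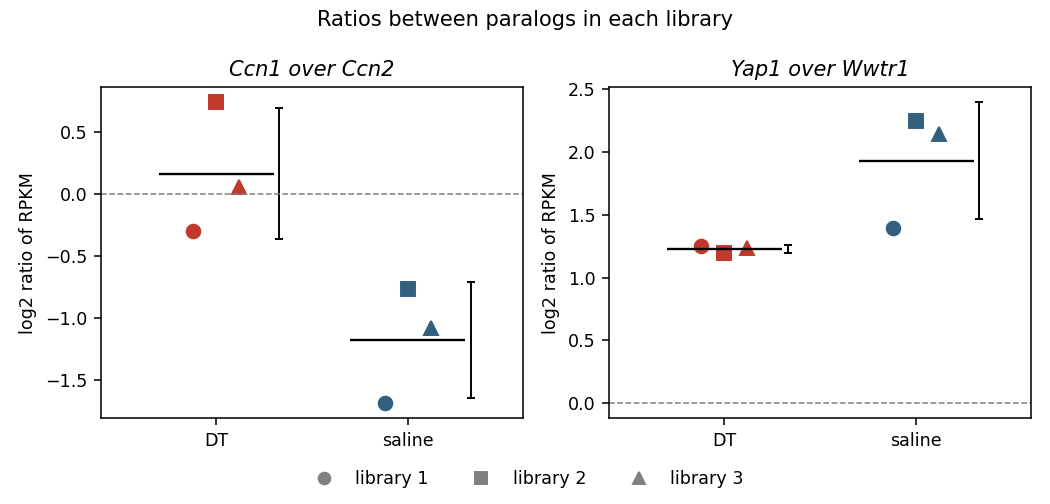
The log2 ratio of RPKM within each library, of Ccn1 over Ccn2 on the left and Yap1 over Wwtr1 on the right, with DT left of saline. Symbols are libraries, lines and bars the mean and SD, and 0 marks equal RPKM; the DT libraries lie above the saline libraries for Ccn1 over Ccn2 and below them for Yap1 over Wwtr1.

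Axl (Entrez 26362, chromosome 7 from 25756500 to 25788924), a receptor tyrosine kinase of the TAM family and a target of YAP, was at 442, 335 and 318 CPM in DT libraries, against 267, 270 and 249 CPM in saline libraries. Every DT library lay above every saline library, DT library 1 most of all. The fold was 1.39 (log2 0.48, SE 0.15, interval 0.15 to 0.81, adjusted p = 0.0351). The call was lost without any 1 of the 6 libraries (adjusted p 0.0514 to 0.104), and the log2 fold change was 0.31 without DT library 1. It also did not pass with libraries scaled by size only (0.38, adjusted p = 0.0671).

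Amotl2 (Entrez 56332, chromosome 9 from 102717091 to 102733418), an angiomotin that binds YAP at junctions and is induced by it, had 22.1, 22.3 and 23.6 CPM in the DT libraries, against 21.4, 24.4 and 17.5 CPM in saline libraries. The DT libraries lay inside the saline range. The log2 fold change was 0.11 (interval -0.29 to 0.50, adjusted p = 0.69), and -0.01 without saline library 3.

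Ankrd1 (Entrez 107765, chromosome 19 from 36111965 to 36119844), a muscle ankyrin repeat protein and a sensitive YAP target in other cells, had 8, 9 and 3 reads in DT libraries 1 to 3 and 0 reads in each saline library. It was therefore seen in all DT libraries and in none of the saline libraries, at a very low level. The DT level was 0.326 CPM pooled over the group (exact Poisson interval 0.199 to 0.504 CPM, counting error only), and 0 reads over the saline group allow up to 3 reads, or 0.0436 CPM. Against that floor Ankrd1 was at least 7.48-fold higher in DT at its pooled level, and at least 4.57-fold higher at the lower end of that interval. It was too low for the main test, and with no filter on low counts it passed (edgeR, adjusted p = 0.024 over 24126 genes). The smooth muscle marker Acta2 moved the same way, at 23.1, 88.2 and 102 CPM in DT and 0.870, 0.601 and 1.13 CPM in saline. Tagln also rose, while Myh11, Des, Rgs5 and Pdgfrb of the same marker list stayed under 1 CPM in every library. The part of smooth muscle cells in the Ankrd1 result was not tested.

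**Figure D4:**
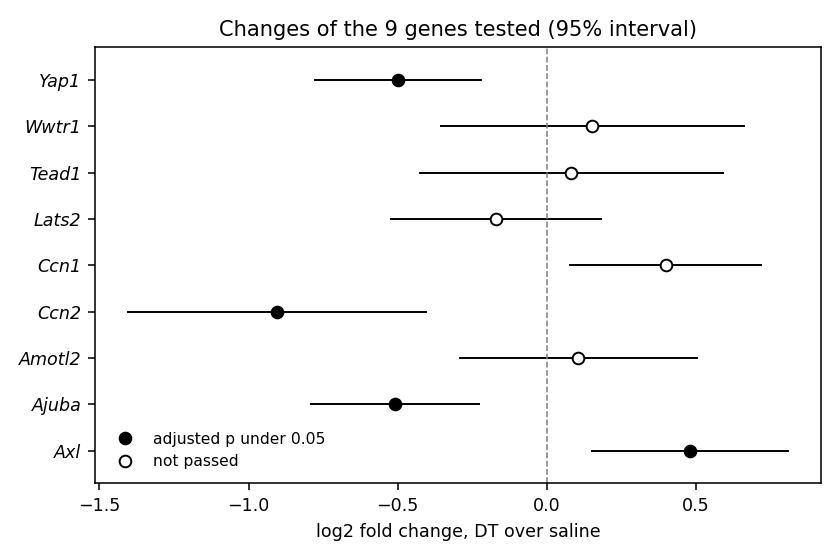
Log2 fold changes of the 9 genes tested, DT over saline, with 95% intervals from the edgeR fit. Filled points passed at an adjusted p under 0.05: Yap1, Ccn2 and Ajuba lie left of 0 and Axl right of it, and the interval of Ccn1 lies above 0 although its adjusted p was 0.0617.

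The submitters' sample identifiers form 2 number series, the larger with 2 libraries per group and the smaller with 1 (DT library 3 and saline library 3). Within the larger series 0 of the 9 genes passed with edgeR, where 10.3% of all genes passed, and 5 of the 9 had an unadjusted p under 0.05, where 28.0% of all genes had one. Fits of the same 4 libraries with limma-voom and DESeq2 were added after the data were seen. With limma-voom 0 of the 9 passed (9.78% of all genes) and with DESeq2 1 did (15.5% of all genes), and by each tool 5 had an unadjusted p under 0.05 (28.2% of all genes with limma-voom and 27.1% with DESeq2). With the number series as a term over all 6 libraries, the 4 calls among the 9 genes were kept. Within the larger series alone, directions with edgeR were those of the full comparison for Yap1 (-0.54), Ajuba (-0.61), Ccn2 (-0.89), Axl (0.54) and Ccn1 (0.50). Between the 2 libraries of the smaller series, with no test, the log2 ratios were -0.42 for Yap1, -0.31 for Ajuba, -0.92 for Ccn2, 0.35 for Axl and 0.21 for Ccn1. The DT and saline libraries of these 5 genes did not overlap. Their directions within either series follow from that and are no separate support. Wwtr1 had -0.00 in the larger and 0.49 in the smaller series, Tead1 had -0.15 and 0.65, and Amotl2 -0.04 and 0.43, and these gaps between the series were not tested.

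Other target genes of YAP and TEAD, a list known mostly from human cancer cells, were called in both directions. This list and those in the paragraphs below were chosen with earlier results of these data known. Their shares of calls, set beside that of all genes, are therefore descriptions and no test. Of the 16 listed, 15 were tested, of which 8 fell and 4 rose (80.0% called, against 29.0% of all genes; median log2 fold change -0.71, against -0.01). Tgfb2, a TGF-beta ligand, fell to 54.7 ± 6.50 CPM in DT, against 118 ± 12.1 CPM in saline (SD, n = 3; log2 -1.11, adjusted p = 0.00062). Igfbp3, a secreted binding protein of insulin-like growth factors, fell to 6.65 ± 3.38 CPM in DT, against 29.6 ± 8.19 CPM in saline (log2 -2.14, adjusted p = 0.00206). The other genes that fell were Rbms3 (log2 -0.91), an RNA-binding protein, Crim1 (-0.74), a membrane protein that binds BMPs, Ptpn14 (-0.60), a phosphatase that itself restrains YAP, Nt5e (-0.72), the ectoenzyme CD73, Arhgef17 (-0.83) and Ccdc80 (-1.41). These 6 were named after their values were seen.

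The 4 target genes that rose were Myof, a membrane repair protein, at 126 ± 4.04 CPM in DT and 75.0 ± 6.67 CPM in saline (log2 0.75, adjusted p = 0.00222), Gadd45a, a stress-induced growth arrest gene, at 7.402 ± 1.62 CPM in DT and 2.15 ± 0.440 CPM in saline (1.77, adjusted p = 0.00269), F3, which encodes tissue factor (2.25, adjusted p = 0.00984), and Dock5, a Rac activator (1.54, adjusted p = 0.0129). F3 had 26.8, 51.3 and 41.4 CPM in the DT libraries, against 2.03, 11.0 and 12.2 CPM in the saline libraries, and did not pass with no filter on low counts (adjusted p = 0.132). Asap1 (-0.71, adjusted p = 0.0567), Nuak2 (0.76, adjusted p = 0.121) and Fjx1 (0.44, adjusted p = 0.268) did not pass, and Foxf2 had no reads. Calls were lost without saline library 2 for Ptpn14 (adjusted p = 0.0571) and without DT library 3 for Dock5 (0.0618). They were also lost without DT library 2 or 3 or saline library 2 or 3 for Nt5e (up to 0.0796), without DT library 2 or 3 or saline library 1 or 2 for Arhgef17 (up to 0.0848), and without any library but saline library 2 for Ccdc80 (up to 0.135). Arhgef17 and Ccdc80 also did not pass with limma on log2 RPKM, nor Ccdc80 with the number series as a term (adjusted p = 0.0603) or with DESeq2 size factors (0.0518). Within the larger series 7 of the 12 calls passed, and Myof (adjusted p = 0.0551), Ccdc80, Nt5e, Dock5 and Arhgef17 did not (up to 0.229), all 12 with the same direction. The libraries of that series are part of the comparison that gave the calls, so the shared direction is no separate support.

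Of 23 listed kinases, adaptors and regulators upstream of YAP, 21 were tested, and 5 fell and 2 rose (33.3% called, against 29.0% of all genes; median log2 fold change -0.09). The genes that fell were Map4k2 and Map4k3, kinases that can activate LATS (log2 -0.90, adjusted p = 0.00666, and -0.63, adjusted p = 0.0277), Taok2, which activates the MST kinases (-0.86, adjusted p = 0.00836), Tnik, a kinase related to the Map4k group (-0.97, adjusted p = 0.0293), and Fat1, a giant protocadherin (-0.66, adjusted p = 0.0206). Those that rose were Map4k1 (0.94, adjusted p = 0.0477) and Mob1b, a LATS cofactor (0.88, adjusted p = 0.0482). The core kinases themselves did not pass: Stk4 was at 47.0 ± 3.91 CPM in DT and 49.9 ± 4.64 CPM in saline (log2 -0.08, interval -0.41 to 0.24), Lats1 at 24.0 ± 1.08 CPM in DT and 25.4 ± 4.03 CPM in saline (-0.08, interval -0.46 to 0.31), and Stk3 at 48.2 ± 11.7 CPM in DT and 31.3 ± 7.55 CPM in saline (0.62, adjusted p = 0.0703). Map4k2 and Taok2 passed in each of the 6 fits that left out 1 library. Fat1 did not pass without DT library 2 or 3 or saline library 1 or 2 (adjusted p up to 0.065), Map4k3 without DT library 1 or 3 or saline library 2 or 3 (up to 0.0791), Tnik without DT library 1 or 3 or saline library 1 (up to 0.104), Map4k1 without any library but DT library 1 (up to 0.179), and Mob1b without any 1 library (0.0503 to 0.212). Map4k1 and Mob1b also did not pass with libraries scaled by size only or with the number series as a term (adjusted p = 0.0591 and 0.0637), nor Fat1 and Tnik with limma on log2 RPKM. Of 16 alternatives each, Map4k1 kept its call in only 6 and Mob1b in only 3. Within the larger series only Fat1 of the 7 calls passed, Map4k2 having an adjusted p of 0.0756 and Taok2 of 0.124 there, all 7 with the same direction. As that series is part of the full comparison, the shared direction is no separate support.

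**Figure D5:**
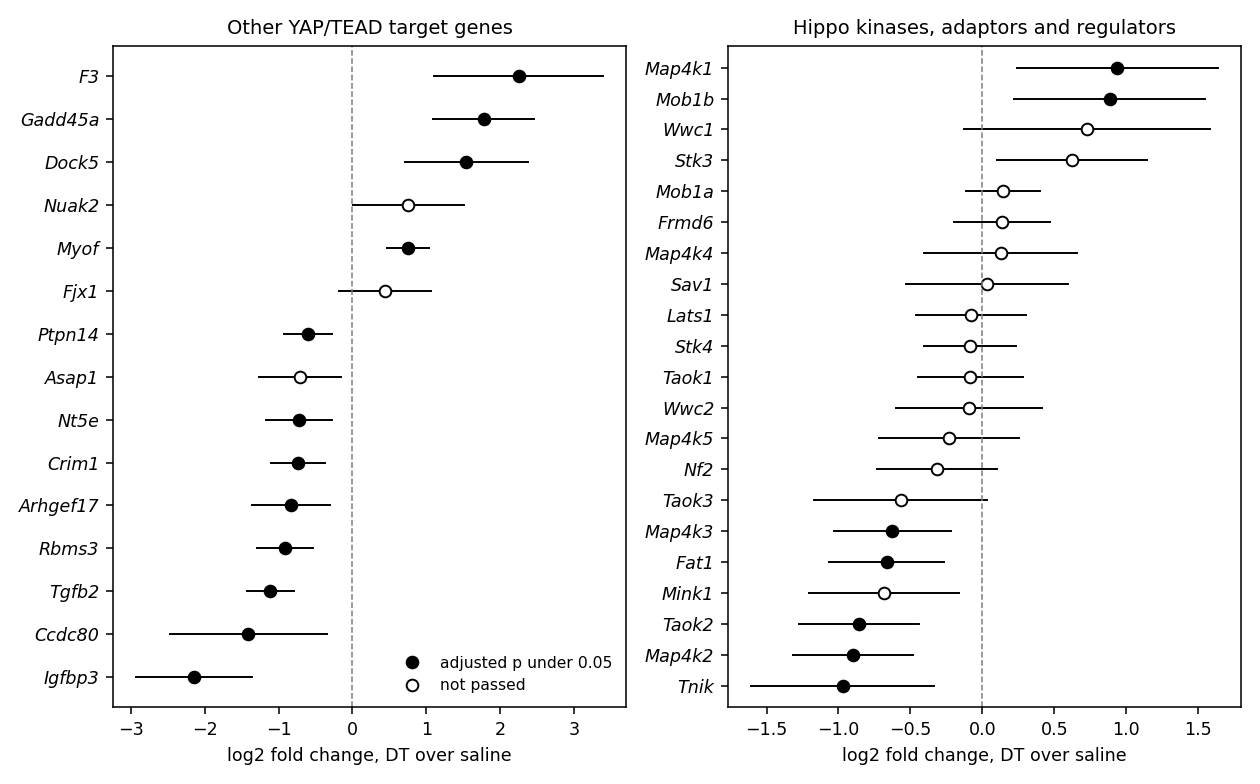
Log2 fold changes, DT over saline, with 95% intervals from the edgeR fit, of the other YAP/TEAD target genes on the left and the Hippo kinases, adaptors and regulators on the right, ordered by fold change. Filled points passed at an adjusted p under 0.05, 12 of 15 on the left and 7 of 21 on the right, and calls lie on both sides of 0 in both panels.

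Of the other 7 TEAD and VGLL genes, 5 were tested and 0 passed with edgeR, DESeq2 or limma-voom (0 with an unadjusted p under 0.05 by each). Tead2 was at 1.71 ± 0.342 RPKM in DT and 1.97 ± 0.0983 RPKM in saline, Tead3 at 1.45 ± 0.663 RPKM in DT and 2.26 ± 0.622 RPKM in saline, and Tead4 at 1.54 ± 0.470 RPKM in DT and 1.40 ± 0.0606 RPKM in saline (SD, n = 3). The 4 TEAD genes were thus at similar low levels per length, with Tead1 highest in mean in both groups. Without division by length Tead1 stood further apart, with means of 25.7 CPM in DT and 24.3 CPM in saline. Tead2, Tead3 and Tead4 had means of 4.65, 4.65 and 5.07 CPM in DT and 5.39, 7.24 and 4.57 CPM in saline. Vgll4, a cofactor that competes with YAP for TEAD, was at 81.4 ± 4.78 CPM in DT and 89.3 ± 5.88 CPM in saline (log2 -0.13, interval -0.41 to 0.15). Vgll1 and Vgll2 had no reads in any library.

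Close relatives of the members gave further contrasts. Among the receptors of the TAM family, Axl rose while Mertk fell to 36.8 ± 13.0 CPM in DT, against 104 ± 24.1 CPM in saline (SD, n = 3; log2 -1.50, adjusted p = 0.00241), and Tyro3 did not pass (-0.62, adjusted p = 0.205). Gas6, the ligand of these receptors, fell to 42.0 ± 5.70 CPM in DT, against 80.2 ± 9.21 CPM in saline (-0.93, adjusted p = 0.00222), and their other ligand Pros1 was at 99.7 ± 19.8 CPM in DT and 123 ± 11.4 CPM in saline (-0.30, adjusted p = 0.181). Mertk is also known from macrophages, and the summed immune markers were lower in the same libraries, as given above. Of these immune markers, Csf1r was at 1.77 CPM in DT and 2.45 CPM in saline and did not pass (adjusted p = 0.48). Cd207 was lower in every DT library than in any saline library but did not pass (log2 -1.15, adjusted p = 0.0759). Cd74 fell (log2 -0.64, adjusted p = 0.00978). Lyz2, at 0.332 CPM in DT and 1.69 CPM in saline, was too low to be tested. The part of macrophages or other immune cells in the fall of Mertk was not tested. Of the other CCN genes, Ccn3, Ccn4 and Ccn5 were under 1 CPM in every library and Ccn6 did not pass (-1.004, adjusted p = 0.281), so the family was represented mainly by Ccn1 and Ccn2.

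Limd1, a LIM protein related to Ajuba, fell to 101 ± 15.6 CPM in DT, against 155 ± 10.8 CPM in saline (log2 -0.63, adjusted p = 0.0109). The angiomotin Amotl1, at 225 ± 41.2 CPM in DT and 251 ± 30.4 CPM in saline, did not pass (-0.16, adjusted p = 0.48). Of the ankyrin repeat genes related to Ankrd1, Ankrd23 fell (-1.64, adjusted p = 0.00706) and Ankrd2 rose (1.41, adjusted p = 0.0353), though Ankrd2 was at most 2.89 CPM in any library and did not pass without any library but saline library 3 (adjusted p up to 0.115). In all, 4 of the 11 relatives tested fell and 1 rose (45.5% called, against 29.0% of all genes). Within the larger series Gas6 and Mertk passed, and Limd1 (adjusted p = 0.0755), Ankrd23 (0.0932) and Ankrd2 (0.0937) did not, with the same direction. Here too the direction is no separate support, as the calls came from a comparison that includes that series.

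The genes whose profiles over the 6 libraries were most like those of Ccn1 and Ccn2 were found among 12946 named genes, by the root mean square difference between log2 CPM profiles, each centred on its own mean. For Ccn1 they were Wdr3, Gpr89 and Pex2, with differences of 0.0273, 0.0296 and 0.0334 and log2 fold changes of 0.38, 0.44 and 0.39, none past the test. For Ccn2 they were Gramd1a, Atad3aos and Lncppara, with differences of 0.0958, 0.0969 and 0.112 and log2 fold changes of -0.87, -0.94 and -0.92, of which Gramd1a passed (adjusted p = 0.0201). The gene closest to Ccn2 was thus farther from it than Pex2 was from Ccn1. These differences were not scaled for the size of a gene's change. Atad3aos and Lncppara were at low levels, with means of 3.29 and 1.84 CPM in DT and 6.38 and 3.51 CPM in saline.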

How the data were processed

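RNA of the sorted cells was sequenced as polyadenylated RNA, and GSNAP and GRCm38 are named in the submitters' processing notes, without versions; annotation and strand are not stated. The deposited count is of reads with a unique alignment to a gene model, and the deposited RPKM was adjusted by the authors with a size factor, both per the file headers. RPKM was checked to be a rescaling of the counts by gene and library. Unique alignment under-counts genes with near-identical copies.

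Symbols and coordinates came from RefSeq (GRCm38.p6), which names 31049 of 36528 identifiers and 14371 of the genes tested. Counts were filtered with filterByExpr (minimum count 10, minimum total 15), scaled by TMM and tested with edgeR 4.0.16 in R 4.3.3 (robust quasi-likelihood, no covariate, Benjamini-Hochberg adjusted p under 0.05). Fold changes are DT over saline, and intervals cover 95%. The SE was taken as the absolute log2 fold change over the square root of the test's F statistic. Intervals were built from it with the t distribution. The script was tested on simulated data. No pair of libraries within a group looked like a repeat (chi-square per degree of freedom at least 21.2). Alternatives used DESeq2 1.42.0, limma 3.58.1, other scalings and filters, pseudocounts of 1 and 0.1 on RPKM, the number series of the sample identifiers, and each library left out. Libraries were numbered in record order, which pairs nothing. Named genes are the 10 genes, up to 4 per list with the smallest p, those behind counts of 5 or fewer, and the 3 most like Ccn1 and Ccn2. The members and lists were chosen with earlier results of these data known.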

Additional observations from a re-analysis of the deposited data

How the results depend on the processing

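Of 144 alternative values of the 9 genes tested (16 each), 122 kept their direction and side of the threshold, 13 no longer passed, 1 newly passed and 8 changed sign. The 8 were Wwtr1 at -0.0041 in the larger number series and -0.0029 without saline library 2, Tead1 at -0.014 with library size only, -0.15 in the larger series, -0.043 without DT library 2 and -0.12 without saline library 3, and Amotl2 at -0.042 in the larger series and -0.015 without saline library 3. With a library left out, Wwtr1 ranged from -0.0029 to 0.44, Tead1 from -0.12 to 0.27 and Amotl2 from -0.015 to 0.22, never past the threshold.
The number of members called higher was 0 with library size only, 2 with no filter on low counts (Axl and Ankrd1), 2 with DESeq2 (Axl and Ccn1), 0 in the larger series and 0 to 0 with a library left out, where 1 or 2 had an unadjusted p under 0.05. The number called lower was 0 in the larger series and 1 to 3 with a library left out, the 1 being Ccn2 without saline library 2.
Over all genes, calls were 1097 higher and 473 lower in the larger series, and 1564 to 2826 higher and 996 to 2045 lower with a library left out.
Library size only moved the median of all genes to -0.11. The Ccn1 to Ccn2 ratio differed by 1.05 to 1.57 and the Yap1 to Wwtr1 ratio by -0.97 to -0.54 (log2) with a library left out. No paired analysis was possible because the labels give no replicate numbers. Ankrd1 rests on 20 reads, and its counting interval leaves out the spread between libraries.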
